A study of Triticum aestivum with 6 samples.

Results

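Axillary buds are small shoot meristems, with their first leaf primordia, that sit in the axils of leaves. In wheat, buds at the base of the plant grow out into tillers, the side shoots that can carry spikes, so the number of buds that form and grow out sets much of the shoot's architecture. Bread wheat carries the subgenomes A, B and D, each with 7 chromosomes, and most genes are present as related copies (homoeologs) on the matching chromosomes of the subgenomes. The chromosomes 1A, 1B and 1D, for example, form homoeologous group 1.

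The values described here are those of the axillary bud of Fielder, a spring wheat cultivar, the wild type of the study. They are 3 libraries (replicates 1, 2 and 3) of the 6 in the series. The other libraries come from buds of the tfl1-5 mutant and enter no comparison here. No transgene, edit or treatment is given for Fielder. The labels give no plant age, and the study names different seedling ages in its methods and in its results. The study calls the libraries biological repeats, but no label says whether they came from separate plants or pools, so the spread given below is the spread between these libraries. In whole buds, fewer cells of a type and less RNA per cell cannot be told apart.

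Each gene has a read count and an FPKM value (fragments per kilobase of gene length, scaled to the total count of the library). The count totals were 13320461, 15178115 and 17174131 in replicates 1, 2 and 3. A single count was worth 0.0751, 0.0659 and 0.0582 CPM (counts scaled to the library's total) in these libraries. A gene was taken as expressed when its mean FPKM over the 3 libraries was at least 1. Of the 70043 genes listed, 65890 (94.1%) had a count in at least 1 Fielder library and 54968 had a count in every one. A further 4153 genes had no count in any of them. Expressed genes numbered 45427, or 64.9% of those listed, and 40906 of them had an FPKM of 1 or more in every library. The remaining 4521 expressed genes were below 1 in at least 1 library.

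A gene's identifier gives its chromosome and its order along it, but the count and FPKM tables hold no gene names, and 0 of the identifiers matched the reference gene table used here. Names and descriptions were therefore taken only from the study's own annotation, which was read for genes on 1A, 1B, 1D and part of 2A and for a few gene families. None of the 25 most abundant genes was among them, and they are given by identifier.

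The most abundant transcript of the bud came from TraesCS1D02G034800 on chromosome 1D. Its FPKM was 6941 in replicate 1, 6280 in replicate 2 and 7802 in replicate 3 (mean 7007 ± 763, SD, n = 3). Every library of this gene was above every library of any other gene, and it alone held 1.06% ± 0.0890 of the summed FPKM (SD, n = 3). It took 9.13% of all counts on chromosome 1D.

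A set of 3 genes of the same length, 366 bases, followed on the chromosomes of homoeologous group 4. TraesCS4A02G194400 had 3226, 2603 and 2681 FPKM in replicates 1, 2 and 3. TraesCS4D02G118900 had 2970, 2472 and 3013 FPKM. These values overlapped those of the 4A gene, and the means, 2837 ± 339 and 2818 ± 301 (SD, n = 3), were closer than their spread. TraesCS4B02G120900 was lower, with 2026, 1768 and 1816 FPKM, and no library of it reached the lowest of the 4A or 4D gene. The files do not say whether the 3 genes are homoeologs, and reads shared between near-identical copies could be split among them in counting.

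TraesCS1B02G042200 had 1900, 2135 and 2697 FPKM in replicates 1, 2 and 3. TraesCS4D02G145400 was among the steadiest of the abundant genes, with 2266, 2176 and 2098 FPKM (mean 2180 ± 84.3, SD, n = 3). TraesCS4B02G020300 had 1416, 1558 and 1944 FPKM. For the 2 group 4 genes of nearly the same length, TraesCS4B02G020300 (866 bases) and TraesCS4D02G018500 (864 bases), the lowest library was replicate 1 and the highest replicate 3. TraesCS4D02G018500 had 1000, 1093 and 1410 FPKM, and no library of it reached the lowest 4B value. TraesCS3A02G344700 had 1469, 1438 and 1689 FPKM. TraesCS4D02G069100 had the widest spread of the 25 genes relative to its mean, with 795, 1405 and 1477 FPKM in replicates 1, 2 and 3, so its place in the order depended on the library.

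The order within the 25 genes was loose. Of the 25 steps from 1 gene to the next lower one, 23 joined genes whose values overlapped across the 3 libraries. The exceptions were the step below TraesCS1D02G034800 and the step from TraesCS4D02G145400 to TraesCS4B02G120900. The genes ranked 11 to 25 lay between 772 and 1150 FPKM. Of the 25 genes, 6 were on the A, 9 on the B and 10 on the D subgenome. The group 4 chromosomes held 10 of them, while those chromosomes held 12.7% of the expressed genes, and the group 6 chromosomes held 0. In 20 of the 25 genes the highest library was replicate 3, against 31.0% of all expressed genes and 45.3% of expressed genes under 1000 bases. All 25 were shorter than the median expressed gene, with a median length of 647 bases against 1665 bases.

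**Figure D1:**
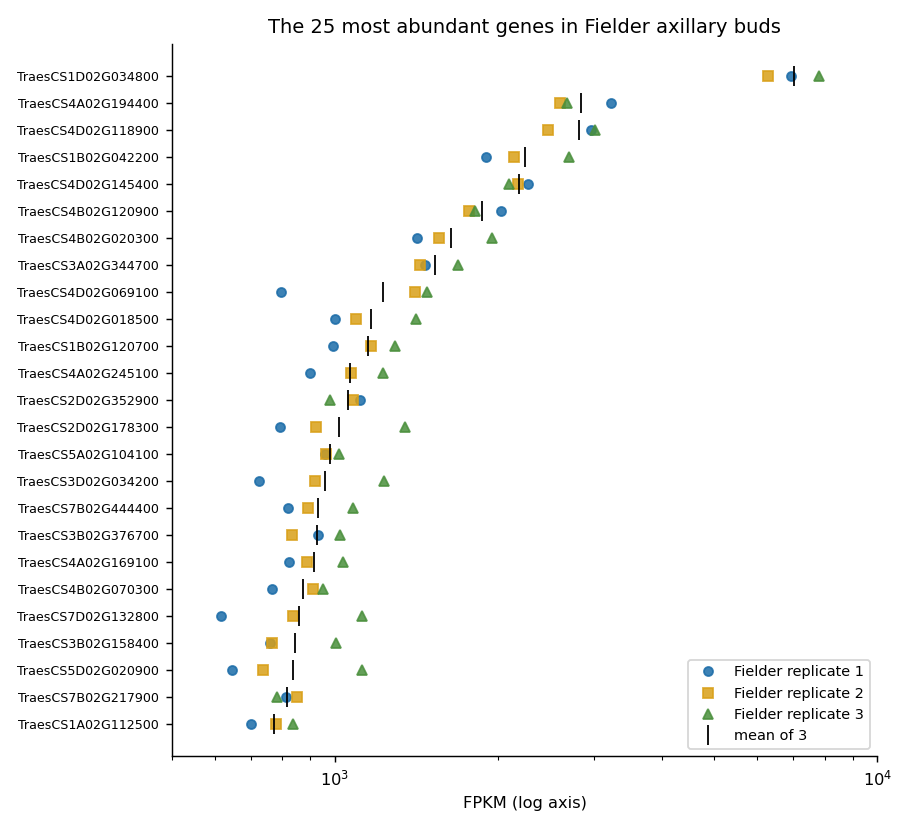
FPKM in each Fielder library (points, log axis) of the 25 genes with the highest mean FPKM, with the mean of the 3 libraries as a vertical tick. TraesCS1D02G034800 stands above all others at 6280 to 7802 FPKM, and TraesCS4D02G069100 has the widest spread relative to its mean, 795 to 1477 FPKM.

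FPKM favours short genes relative to counts, so the order by CPM differed. TraesCS1D02G034800 remained first, with a mean of 4891 CPM. TraesCS5D02G268000, a gene of 2682 bases that ranked 44 by FPKM, was second with 1650 CPM from 20593, 28506 and 26185 counts. TraesCS1B02G042200, TraesCS1D02G353100 and TraesCS4B02G020300 followed with 1452, 1431 and 1420 CPM.

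Expression was spread over many genes. The 14 genes with a mean of 1000 FPKM or more, of which 3 were on A, 4 on B and 7 on D, held 4.35% of the summed FPKM. The 25 most abundant genes held 5.82% ± 0.292 of it and the 1000 most abundant held 34.99% ± 2.18 (SD, n = 3). The 1000 genes held 32.9%, 34.8% and 37.2% in replicates 1, 2 and 3, so expression was most concentrated in replicate 3. It took 2965 genes to reach 50% of the summed FPKM and 4571 genes to reach 50% of the counts. The 12087 genes between 10 and 50 FPKM held 35.6% of the summed FPKM, the largest share of any level class. The 20463 genes with a count but a mean under 1 FPKM held 1.01%.

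The subgenomes contributed nearly equal shares. The D subgenome took 34.1%, 33.9% and 34.1% of the counts in replicates 1, 2 and 3 (mean 34.0% ± 0.0971, SD, n = 3). The A subgenome took 32.8%, 32.8% and 33.0% (mean 32.9% ± 0.136). The B subgenome took 32.2%, 32.4% and 32.0% (mean 32.2% ± 0.205). Unanchored genes (U) took 0.868% ± 0.0280. The order D, A, B held in 3 of 3 libraries, and no value of the D subgenome overlapped with those of A or B. D exceeded A by 1.33, 1.19 and 1.04 percentage points and B by 1.94, 1.51 and 2.02 points in replicates 1, 2 and 3. A exceeded B by 0.612, 0.315 and 0.982 points. The mean differences were 1.19 ± 0.146, 1.82 ± 0.277 and 0.637 ± 0.334 points (SD, n = 3). An exact two-sided sign-flip permutation test over the 3 libraries gave p = 0.25 for each of the 3 pairs, before and after Benjamini-Hochberg adjustment over them. This is the smallest p that the sign-flip test can give with 3 libraries, so this test could not pass a threshold of 0.05 at any size of difference.

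The D subgenome's lead was smaller without the most abundant genes of all subgenomes together. With the 25 genes of highest mean FPKM left out, the shares were 33.1% for A, 32.3% for B and 33.6% for D. With the 25 genes of highest mean CPM left out, D took 33.6%, 33.5% and 33.5% and A took 33.1%, 33.0% and 33.4% in replicates 1, 2 and 3.

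The number of expressed genes was also similar. The A subgenome had 15096 expressed genes (65.5% of those listed), B had 14797 (64.4%) and D had 15100 (65.2%). Of the unanchored genes, 434 were expressed (49.9%). The median FPKM of expressed genes was 5.83 on A, 5.66 on B and 5.74 on D. Genes are not replicates, so these are descriptions with no test.

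Among chromosomes, 5D took the largest share of counts, with 5.94%, 6.07% and 5.99% in replicates 1, 2 and 3. Chromosome 6A took the smallest, with 3.53%, 3.55% and 3.51%. These were the extremes in every library. By summed FPKM the lowest was again 6A (3.41%), but the highest was 1D, with 5.86% against 5.52% for 5D. The SD over the 3 libraries ranged from 0.00588 percentage points for 7D to 0.120 for 2A. Relative to its share of expressed genes, chromosome 1D took the most counts (1.18 times) and 3B the fewest (0.871 times). Without the 25 most abundant genes, of which only TraesCS1D02G034800 is on 1D, the share of 1D was 4.98% of counts against 5.35% with them. The highest gene of each chromosome lay between 363 FPKM (TraesCS6A02G036600 on 6A) and the 7007 FPKM of TraesCS1D02G034800. The share of listed genes that were expressed ran from 62.8% on 3B to 68.9% on 4B.

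Homoeologous group 5 took the most counts, 17.4% ± 0.111, and group 6 the fewest, 11.1% ± 0.116 (SD, n = 3). Within groups 1, 5 and 6 the order was D, B, A in all 3 libraries, and within group 7 it was D, A, B in all 3. In group 1, 1D took 36.7% ± 0.224 and 1A 30.9% ± 0.201 of the group's counts, a difference of 5.84 ± 0.420 points. Without TraesCS1D02G034800 alone this difference was 2.57 ± 0.133 points. In group 7 the highest and lowest chromosomes differed by 5.63 ± 0.328 points, which overlapped with group 1 across the libraries. In groups 2, 3 and 4 the full order changed between libraries. There 2D was the lowest of group 2, 3B the lowest of group 3 and 4A the highest of group 4 in all 3 libraries, while the places of the other chromosomes overlapped.

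**Figure D2:**
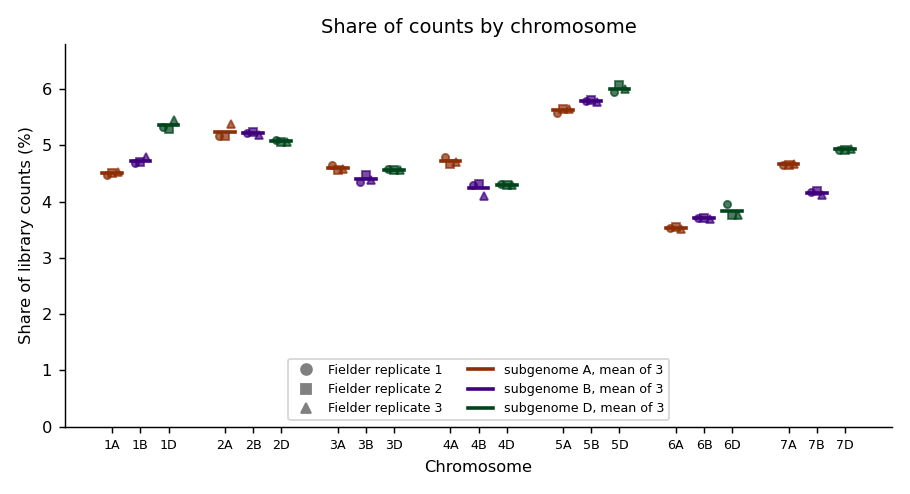
Share of each library's counts by chromosome, with a point for each Fielder library and a line at the mean of 3, coloured by subgenome. Chromosome 5D is highest (5.94% to 6.07%) and 6A lowest (3.51% to 3.55%), and the libraries lie close together on every chromosome.

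The gene number in the identifier follows the order along the chromosome. The identifiers of each chromosome were cut into 10 bins of equal number, which need not be equal lengths of DNA. The share of identifiers with an expressed gene was 27.7% in bin 1, 53.5% in bin 5 and 28.4% in bin 10. This share was lower towards both ends, but it does not give the density of expressed genes along the DNA. The levels of expressed genes varied less, with a median of 5.33 to 6.05 FPKM over the bins. The share of identifiers that belong to genes listed in the tables varies along the chromosome too, and 57.1%, 71.0% and 57.2% of the listed genes were expressed in bins 1, 5 and 10. The longest stretch of identifiers with no Fielder count held 46 identifiers on 7B, between TraesCS7B02G424600 and TraesCS7B02G429300, of which 2 are listed in the tables.

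Gene groups could be described only for the genes the study annotated. The list used here holds 1078 genes on 1A, 1B, 1D and part of 2A, which the study chose because they differed between Fielder and the mutant in these libraries. It is therefore not a sample of the bud's genes, and its counts are descriptions. Of the 1078, 877 were expressed (81.4%), against 64.9% of all listed genes.

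Over the whole annotated list the median was 4.29 FPKM. Of the groups that mark dividing cells, the nucleosome, MCM and DNA replication genes had medians above it and the cell division genes did not. Histones, the proteins that package DNA, are made in quantity during DNA replication. All but 1 of the 62 genes in the nucleosome term were expressed (61), with a median of 30.6 FPKM. All 9 genes of the MCM complex, which unwinds DNA at replication origins, were expressed with a median of 16.2 FPKM, as were all 15 genes of DNA replication with a median of 9.16 FPKM. The MCM and DNA replication groups share genes, so they are not separate descriptions. TraesCS1A02G264000 was the highest gene of both. TraesCS1D02G298400, described as the licensing factor MCM3 and also in both, had 20.9, 17.9 and 19.4 FPKM in replicates 1, 2 and 3. Of 29 cell division genes, 26 were expressed (89.7%), with a median of 3.48 FPKM over all 29.

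The green-leaf markers were mixed. Of 11 genes for photosynthesis and antenna proteins, which capture light in the chloroplast, 1 was expressed, 3 had no count, and the median was 0.155 FPKM. The expressed gene was TraesCS1D02G400100, a photosystem I subunit (PSAH), with 0.957, 1.53 and 0.945 FPKM. The 2 genes for a light-harvesting chlorophyll-binding protein with the highest levels, TraesCS1D02G428200 and TraesCS1B02G451200, had no count in replicate 1 and stayed under 1 FPKM in the others. Of 22 genes annotated to the thylakoid membrane, 11 were expressed, with a median of 0.828 FPKM. The highest of them, TraesCS1B02G193100 and TraesCS1B02G011200, had means of 22.2 and 11.4 FPKM. These genes are in the list because they differed from the mutant, so their levels in Fielder do not stand for the bud's other photosynthesis genes, which were not read here.

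The histone genes differed between libraries more than the other dividing-cell genes. The median SD divided by the mean was 45.9% for nucleosome genes, 12.0% for MCM genes, 14.0% for DNA replication genes and 20.2% for cell division genes. The nucleosome genes summed to 1967, 2322 and 4208 FPKM in replicates 1, 2 and 3 (0.118%, 0.139% and 0.252% of the counts), so replicate 3 stood apart. The histone H3 gene TraesCS1A02G361700 had 136, 162 and 296 FPKM. The core histone gene TraesCS1D02G366400 had 187, 210 and 373 FPKM. Replicate 3 was the highest library for 58 of the 61 expressed nucleosome genes (95.1%), against 31.0% of all expressed genes and 45.3% of expressed genes under 1000 bases. The median ratio of replicate 3 to the mean of replicates 1 and 2 was 1.997 over the nucleosome genes, 1.12 over expressed genes under 1000 bases and 0.961 over all expressed genes. Without replicate 3 the mean sum was 2145 FPKM, against 2833 with it. MCM genes did not share this order: they summed to 162, 142 and 140 FPKM. Of the 9 MCM genes, 6 (66.7%) were highest in replicate 1, against 38.4% of all expressed genes. Among 6174 long expressed genes (median 3728 bases), 58.1% were highest in replicate 1. The MCM genes had a shorter median length, 2904 bases, so these sets were not matched for length. Whether gene length and the order of the MCM genes are related was not tested.

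Ribosome genes, for the proteins of the translation machinery, were high as well. Of 24, 23 were expressed, with a median of 17.7 FPKM. Of those 23, 16 (69.6%) were highest in replicate 3, against 31.0% of all expressed genes and 45.3% of those under 1000 bases. The 3 genes for the ribosomal protein L36-3 were all highest in replicate 3: TraesCS1D02G283800 had 90.2, 149 and 157 FPKM. TraesCS1A02G284800 had 67.7, 107 and 141 FPKM. TraesCS1B02G294200 had 52.9, 89.4 and 112 FPKM. In each of them replicate 1 was the lowest library.

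The libraries also differed by gene length, over all 25045 genes with a mean of at least 5 FPKM, cut into 10 bins of equal size. In the bin of shortest genes (median 540 bases) the median log2 deviation from a gene's own mean was -0.13 in replicate 1, -0.02 in replicate 2 and 0.14 in replicate 3. In the bin of longest genes (median 4114 bases) it was 0.14, 0.02 and -0.16. Histone and ribosome genes are short, with medians of 683 and 777 bases, and MCM and DNA replication genes are long, with medians of 2904 and 2703 bases. The nucleosome genes' median log2 deviation in replicate 3, 0.67, was larger than that of the bin of shortest genes. Whether gene length and the histone values are related was not tested.

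**Figure D3:**
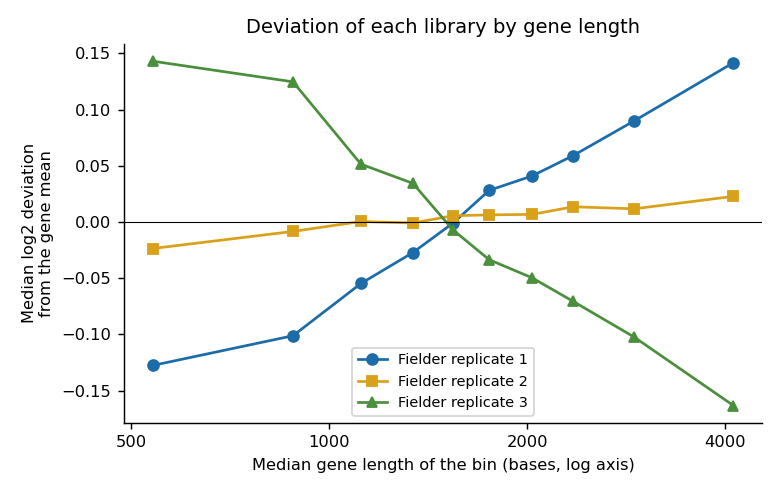
Median log2 deviation of each Fielder library from the gene mean (y axis) by 10 bins of gene length (median length of the bin in bases, log x axis), over 25045 genes. Replicate 3 runs from 0.14 in the shortest bin to -0.16 in the longest and replicate 1 from -0.13 to 0.14, while replicate 2 stays near 0.

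The most abundant annotated gene was TraesCS1A02G265600, described only as a hypothetical protein, with 641, 861 and 560 FPKM in replicates 1, 2 and 3. Its neighbour by identifier, TraesCS1A02G265700, also a hypothetical protein, had 118, 258 and 92.9 FPKM. TraesCS1B02G276500, an unnamed product, had 164, 299.5 and 141 FPKM. These 3 genes were highest in replicate 2. The 5 genes under the symbol GRP-2, for glycine-rich proteins, were all highest in replicate 3, against 41.6% of the expressed annotated genes. TraesCS1A02G262400 was the highest of them, with 144, 163 and 262 FPKM.

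The metabolic, defense and protein processing groups had smaller relative differences between their library sums than the nucleosome genes. Glutathione metabolism genes, which keep the cell's redox balance, summed to 355, 352 and 354 FPKM in replicates 1, 2 and 3, with 16 of 17 expressed. Their highest member was TraesCS1D02G074500, described as a glutamate-cysteine ligase, with 85.1, 98.0 and 75.1 FPKM. Defense response genes summed to 173, 166 and 175 FPKM, with 24 of 28 expressed. Plant-pathogen interaction genes had 9 of 10 expressed, led by TraesCS1B02G088900, a WRKY transcription factor, with 57.0, 63.1 and 76.6 FPKM. The group summed to 159, 174 and 199 FPKM. Starch and sucrose metabolism had 6 of 10 expressed and phenylpropanoid biosynthesis, the route to lignin, 4 of 7, with medians of 1.56 and 2.45 FPKM. The phenylpropanoid genes summed to 10.1, 14.2 and 12.7 FPKM. Of 11 genes for protein processing in the endoplasmic reticulum, 8 were expressed, with sums of 63.7, 71.1 and 53.7 FPKM. The heat shock cognate gene TraesCS1A02G285000, a chaperone, had 4.50, 10.04 and 4.24 FPKM, with replicate 2 above the others. The near-equal sums of the glutathione and defense genes did not mean steady members. Their median SD divided by the mean was 24.8% and 26.2%, against 20.5% for all expressed genes and 24.8% for the expressed annotated genes. It was 42.8% for the phenylpropanoid genes, whose sums differed more between libraries.

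**Figure D4:**
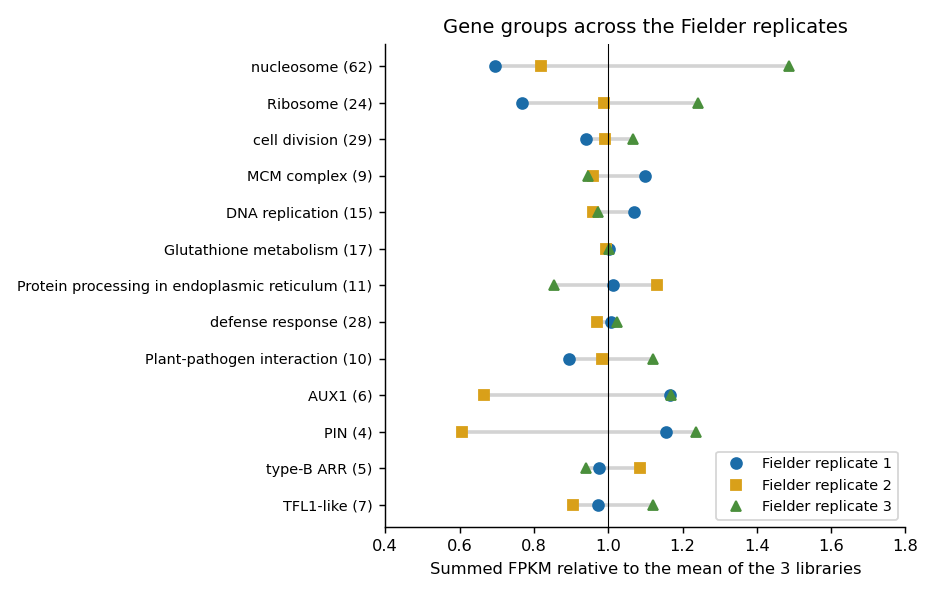
Summed FPKM of each gene group in each Fielder library, divided by the mean of the 3 libraries (x axis), with the number of genes in brackets and a grey bar over the range. Of the 13 groups plotted, the nucleosome genes have the widest bar, with replicate 3 highest, and AUX1 and PIN genes are lowest in replicate 2. Small or low groups such as SPL, TaPIL1 and photosynthesis are not plotted.

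The listed genes of the hormone and flowering pathways that the study followed were mostly low in the wild-type bud. TFL1-like proteins belong to the phosphatidylethanolamine-binding family and in flowering plants keep meristems indeterminate. Of 9 TFL1-like genes, 7 were listed. The other 2, among them TaTFL1-5D (TraesCS5D02G136300), are not among the listed genes and have no value here. Of the 7, 6 were expressed, and the exception was TaTFL1-5A, with a mean of 0.887 FPKM. The highest was TraesCSU02G202000, with 7.43, 6.13 and 10.7 FPKM in replicates 1, 2 and 3. TaTFL1-5A (TraesCS5A02G128600) had 0.637, 0.870 and 1.15 FPKM, and TaTFL1-5B (TraesCS5B02G127600) had 3.36, 2.82 and 1.75 FPKM, with no overlap between them.

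The auxin carriers AUX1 (import into cells) and PIN (export) were expressed in all 6 and all 4 of their listed genes. Replicate 2 was the lowest library for 5 of 6 AUX1 and 4 of 4 PIN genes, against 28.9% of all expressed genes. AUX1 genes summed to 30.7, 17.5 and 30.7 FPKM, and PIN genes to 13.7, 7.16 and 14.6 FPKM. The exception, TraesCS4B02G226500, had 4.63, 4.79 and 5.03 FPKM. Of 8 AUX/IAA genes, repressors of auxin response, 4 were expressed. TraesCS5D02G449400 was the highest of them, with 25.7, 20.2 and 18.5 FPKM. The other AUX/IAA genes had means of at most 4.77 FPKM. Of 19 SAUR genes, an auxin-induced family, 11 were expressed, and the 1 listed GH3 gene, for an auxin-conjugating enzyme, had 2.66, 3.51 and 1.71 FPKM.

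Cytokinin genes included the highest single genes of these families. Of 5 type-B response regulators, 3 were expressed, with a median of 2.39 FPKM over all 5. The high ones given next therefore do not stand for the group. The type-B response regulator TraesCS6A02G146200, of a family of transcription factors that act at the end of the cytokinin signal, had 46.6, 53.1 and 44.1 FPKM. TraesCS6B02G174400, another type-B gene, had 38.3, 42.2 and 38.9 FPKM, and its highest library did not reach the lowest of the 6A gene. The cytokinin receptor gene CRE1 (TraesCS4A02G264800) had 19.1, 17.3 and 16.2 FPKM. Of 5 type-A regulators, which dampen the same signal, 1 was expressed. Of 8 SPL genes, transcription factors of the age pathway, 2 were expressed, TraesCS5A02G265900 and TraesCS7A02G246500, both lowest in replicate 1 and highest in replicate 3. Of 2 TaPIL1 genes, 1 was expressed. Except for TFL1-like genes, these families were chosen by the study because they differed between Fielder and the mutant in these libraries. The study reported the AUX1, PIN, SPL and TaPIL1 genes as raised in the mutant and CRE1 as lowered. Genes picked as raised there tend to be low in Fielder by that choice, so these levels do not describe the whole families.

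Agreement between the libraries was high. Pearson's r of log2(FPKM + 1) across all 70043 genes was 0.964 between replicates 1 and 2, 0.962 between 1 and 3 and 0.971 between 2 and 3. These are across genes, which are not independent replicates. The common biological coefficient of variation (BCV) from edgeR, the relative spread beyond counting error, was 24.3% over 46748 genes.

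The spread depended on the level. Over expressed genes, the median SD divided by the mean was 20.5%. It was 35.6% for genes of 1 to 2 FPKM, 15.3% for 10 to 50 FPKM and 15.2% for 100 to 1000 FPKM. At the median count of those classes, counting error alone would be 16.7%, 4.84% and 1.89%. The 14 genes of at least 1000 FPKM had a median of 12.6%, with a counting error of 0.800%. A spread over 50% was seen for 3936 expressed genes (8.66%), and 271 had a spread over 100%.

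**Figure D5:**
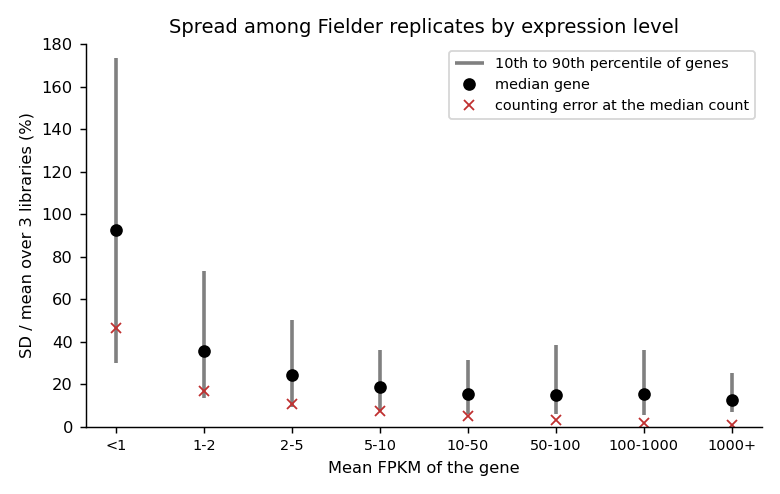
SD divided by mean over the 3 Fielder libraries (y axis, %) by class of mean FPKM, with the median gene (black), the 10th to 90th percentile (grey line) and the counting error at the class's median count (red cross). The median falls from 35.6% at 1 to 2 FPKM to 15.2% at 100 to 1000 FPKM, above the counting error in each class.

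The steadiest gene of at least 10 FPKM was TraesCS2B02G478100, with 98.0, 98.0 and 97.8 FPKM. TraesCS7A02G292400 had 30.3, 30.2 and 30.2 FPKM, and TraesCS7B02G073100, TraesCS5D02G238100 and TraesCS5B02G064500 had SDs of 0.227%, 0.230% and 0.246% of the mean. These genes were picked as the lowest of 13923. Counting error alone would be 4.84% and 2.97% at the median counts of the 10 to 50 and 50 to 100 FPKM classes. Their SDs lay below that, so such close values do not show that these genes vary less than others.

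Among genes with a mean of at least 10 FPKM, the 5 with the largest spread were all highest in replicate 2. TraesCS4A02G279200 had 6.01, 51.3 and 4.05 FPKM. TraesCS4D02G030700 had 4.45, 24.9 and 0.690 FPKM. TraesCS4B02G033300 had 16.0, 64.7 and 4.74 FPKM. These 3 genes are all 675 bases long and lie on 4A, 4D and 4B. The others, TraesCS7B02G259700 and TraesCS3D02G094200, had 47.7 and 39.0 FPKM in replicate 2 and less than 10 FPKM in the other libraries.

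Genes near the 4A, 4B and 4D ones were chosen for a look after these values were seen. TraesCS4A02G279300 had 13.4, 49.0 and 2.92 FPKM. TraesCS4B02G033600 had 12.9, 36.5 and 2.59 FPKM. TraesCS4D02G032000 had 1, 228 and 2 counts. Each was highest in replicate 2, whereas some neighbours, among them TraesCS4D02G031100 with 11.1, 11.2 and 11.7 FPKM, were steady. Similar length does not show that these genes are copies of each other, and whether reads were shared between them was not tested.

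Over the 50 genes of at least 10 FPKM with the largest spread, 35 were highest in replicate 3, 13 in replicate 2 and 2 in replicate 1. Among all 13923 genes of at least 10 FPKM, 34.9% were highest in replicate 3, 27.6% in replicate 2 and 37.5% in replicate 1. The count for replicate 2 was thus near its share over all such genes, while replicate 3 was above its share and replicate 1 below. Among expressed genes, 107 (0.236%) had over 80% of their summed FPKM in 1 library. Of those, 42 were in replicate 1, 47 in replicate 2 and 18 in replicate 3. TraesCS5B02G045100 had 93 counts in replicate 2 and 0 in the other libraries, and its spread (173%), like that of TraesCS4D02G032000 (170%), was above that of every gene of at least 10 FPKM.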

How the data were processed

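Total RNA from axillary buds was sequenced (3 Fielder libraries of 6). The labels name an RNeasy extraction and a SMARTer library kit, whereas the study's methods name other kits. Reads were mapped to the Ensembl Plants wheat genome. The aligner, the counting program and their versions were not given in the sources used here, so the handling of reads shared by homoeologs is unknown. The deposited tables hold raw counts per gene and the authors' FPKM, which equals counts per kilobase scaled to the total count of the same library.

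The 3 Fielder columns were read, and the remaining 3 were left out. Means, SDs and shares were computed in Python 3.11.15, and the BCV in edgeR 4.0.16 (R 4.3.3) with TMM factors, filterByExpr and an intercept-only fit, after a test on simulated data. Subgenome shares were compared by an exact two-sided sign-flip permutation test. A pseudocount of 1 was used in log2 correlations.

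Named genes were the 25 highest by mean FPKM, the 5 highest by CPM, the highest of each chromosome, the 10 highest annotated genes, the listed families, the extremes of spread and genes with over 80% of FPKM in 1 library. Descriptions came from the study's annotation. The genes and lists were chosen with earlier results of these data known. The counting errors given cover sampling of reads only.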

Additional observations from a re-analysis of the deposited data

How the results depend on the processing

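Of 100 recomputed values, 74 stayed within a set limit and 26 moved. The limit was 1.5 times for counts of genes and the SD over the 3 libraries for shares. For r it was the SD over library pairs, and for the BCV and SD over mean that of the leave-1-out values. Leaving out 1 of 3 libraries cannot move a mean share of a subgenome or chromosome, or a mean group difference, by that SD. Those rows could therefore only stay, and the 74 is not a measure of stability. Using summed FPKM in place of counts, the share of B was 31.9% and of D 34.4%, and the chromosome shares were 5.52% for 5D, 3.41% for 6A and 5.86% for 1D, so 1D and not 5D was the highest chromosome on that scale. Without the 25 most abundant genes, the share of A was 33.1% and of D 33.6%, of 6A 3.62% and of 1D 4.98%. In alternatives chosen after seeing the data, without the 100 most abundant genes by CPM the shares were 33.2% for A, 32.5% for B and 33.5% for D, and without the 1000 most abundant 33.3% for A and 33.6% for D. The order D, A, B held in all these settings. Without the most abundant gene, also chosen after seeing the data, the difference between the highest and lowest chromosome of group 1 was 2.57 points. The 25 most abundant genes by CPM held 3.21% of the counts. The lowest and highest r were 0.936 and 0.947 with log2(FPKM + 0.1), 0.932 and 0.951 over expressed genes, and 0.948 and 0.956 by Spearman. Without a filter on low counts the BCV was 31.6%. Leaving out each replicate in turn gave a BCV of 22.3% to 26.6% and a median SD over mean of 15.3% to 19.1%, the latter over 2 libraries. No paired analysis was possible because no comparison between Fielder and the mutant was made. Depth and 3 libraries limit the spread of genes at low counts, and no gene was named by a test.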
